A study of Homo sapiens with 4 samples.

Results

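The subject is open chromatin around 7 genes of inflammatory signalling: the chemokine genes CXCL8, CXCL1, CXCL2, CXCL3 and CCL20, and the NF-kB feedback genes NFKBIA and TNFAIP3. The assay was ATAC-seq, where a transposase cuts accessible DNA and inserts sequencing adapters. The cells were wild-type HCT116, a human colorectal cancer line, after 6 h with tunicamycin at 0.5 µg/ml (2 libraries) or with 0.1% DMSO, the solvent control (2 libraries), from 50000 cells each. Tunicamycin blocks protein N-glycosylation and so causes stress in the endoplasmic reticulum (ER). The series calls the libraries of a group biological replicates, and all of them come from a single cell line. Peaks were taken as members where their midpoint lay within 20 kb of the hg19 start site of 1 of the 7 genes, and as promoter peaks within 2 kb. This gave 69 peaks in the 4 lists together, which merged into 23 regions of the 78788 in the whole series. The label of the cells was not checked against marker genes, because only these start sites were placed on hg19.

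Chemokines of the CXCL family with an ELR motif attract neutrophils. CXCL8 (interleukin-8) acts through the receptors CXCR1 and CXCR2, and CXCL1, CXCL2 and CXCL3 act mainly through CXCR2. CCL20 is the ligand of CCR6 on T cells, B cells and dendritic cells, and is made by the intestinal epithelium. NF-kB, a family of transcription factors, drives all of these genes. It also drives 2 of its own brakes: NFKBIA encodes IkB-alpha, which holds NF-kB in the cytoplasm, and TNFAIP3 encodes A20, a ubiquitin-editing enzyme that shuts down signalling upstream of NF-kB. ER stress is known to activate NF-kB through sensors of the unfolded protein response. The comparison here asked whether accessibility at these genes differed between stressed and control cells.

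The promoters are shown first, since they hold the NF-kB sites by which these genes are known. RefSeq windows from 250 bases before to 50 after the start were found for 7 of 7 genes on GRCh38.p14. A match to GGANNTTCC on either strand was present in 6 of the 7 windows, against 4.56% of 35116 RefSeq promoters. CXCL8, CXCL1, CXCL2 and CXCL3 each held the same 9 bases, GGAATTTCC, which read as a match on both strands. NFKBIA held 2 matches, TNFAIP3 held 1 on the opposite strand and CCL20 held none. These counts are of this pattern only, and NF-kB sites of other letters were not searched for in any window, CCL20 included. The CCL20 window is not shown. The motif ends in TTCC, which reads GGAA on the other strand, the core of ETS sites, so the motif is not unique to NF-kB. In the stretches below, from position -110 to -1 before the RefSeq start (5′ to 3′ along the gene), capitals mark the matches. The stretches lie at chr4:73740459-73740568 on the plus strand (CXCL8), chr4:73869283-73869392 on the plus strand (CXCL1), chr4:74099196-74099305 on the minus strand (CXCL2), chr4:74038690-74038799 on the minus strand (CXCL3) and chr6:137867149-137867258 on the plus strand (TNFAIP3), all GRCh38.p14.
CXCL8: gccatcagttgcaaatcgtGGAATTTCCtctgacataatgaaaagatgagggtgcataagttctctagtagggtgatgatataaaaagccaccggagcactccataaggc
CXCL1: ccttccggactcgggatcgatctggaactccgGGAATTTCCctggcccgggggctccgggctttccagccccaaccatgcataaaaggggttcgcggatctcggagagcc
CXCL2: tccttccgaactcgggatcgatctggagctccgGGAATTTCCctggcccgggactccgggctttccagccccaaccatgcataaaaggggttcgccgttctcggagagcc
CXCL3: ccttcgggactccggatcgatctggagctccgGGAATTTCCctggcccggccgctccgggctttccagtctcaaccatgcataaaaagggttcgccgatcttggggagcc
TNFAIP3: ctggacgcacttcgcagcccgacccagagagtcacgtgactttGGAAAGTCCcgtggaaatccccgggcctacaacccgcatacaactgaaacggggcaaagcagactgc

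The whole NFKBIA window is given because it holds both of the gene's matches, at -242 to -234 and at -81 to -73. It lies at chr14:35404700-35404999 on the minus strand of GRCh38.p14, from -250 to 50.
NFKBIA: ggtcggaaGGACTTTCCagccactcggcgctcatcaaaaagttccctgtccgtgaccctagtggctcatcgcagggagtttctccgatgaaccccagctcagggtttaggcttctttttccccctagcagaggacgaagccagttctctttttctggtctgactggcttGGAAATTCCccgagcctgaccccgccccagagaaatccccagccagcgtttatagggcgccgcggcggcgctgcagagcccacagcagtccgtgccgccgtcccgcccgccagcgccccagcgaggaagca

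The match lay at -78 to -70 in CXCL1 and CXCL3, at -77 to -69 in CXCL2, at -91 to -83 in CXCL8 and at -67 to -59 in TNFAIP3. The promoters of CXCL1, CXCL2 and CXCL3 were the most alike of the 7. In global alignments of the 300-base windows, CXCL1 and CXCL3 were 82.5% identical, CXCL2 and CXCL3 73.8%, and CXCL1 and CXCL2 72.1%. CXCL8 was 42.6% to 44.9% identical with these 3. How reads that fit more than 1 place were treated is not given in the sources used here, so peaks in the most alike parts of these 3 genes are uncertain. Matches to other motifs were rarer. The AP-1 pattern TGANTCA matched in CXCL8 only (7.71% of all promoters) and the C/EBP pattern TTNNGCAA in CXCL2 only (10.5%). The TATA box pattern TATAAA matched in CXCL8, CCL20 and NFKBIA (11.5%). Neither a C/EBP-ATF site (TGATGCAA, in 0.866% of all promoters) nor an ER stress element (CCAAT and CCACG separated by 9 bases, in 0.0769%) was found in any of the 7 windows. All motifs were read on both strands, and a window without a match may still hold a site of other letters. The RefSeq starts and the hg19 start sites used for the peaks can differ by some bases, and positions on the 2 builds were not joined.

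At none of the 9 regions tested near these genes was a difference called between tunicamycin and DMSO. Within 20 kb of the 7 start sites the tunicamycin lists held 19 and 18 peaks and the DMSO lists 16 and 16. The means were 18.5 ± 0.707 after tunicamycin and 16.0 ± 0 after DMSO (SD, n = 2 each), a difference of 2.5 peaks, and an exact permutation test (two-sided) gave p = 0.333, the smallest value that 2 libraries against 2 allow. The whole lists were longer after tunicamycin too, with 58467 and 62526 peaks against 56581 and 56566. Per 10000 listed peaks, the 7 windows held 3.25 and 2.88 peaks in the tunicamycin libraries and 2.83 in each DMSO library. Peaks in the windows covered 3195 and 2985 bp after tunicamycin, against 2856 and 2961 bp after DMSO. Both tunicamycin libraries thus lay above both DMSO libraries in the number of peaks and in covered length. The groups met in peak number with all lists at the length of the shortest, at 19 and 16 peaks after tunicamycin and 16 and 16 after DMSO (two-sided exact permutation p = 1.00). They also met with −log10 q of at least 5, at 19 and 16 peaks after tunicamycin and 16 and 14 after DMSO (two-sided exact permutation p = 0.667).

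**Figure D1:**
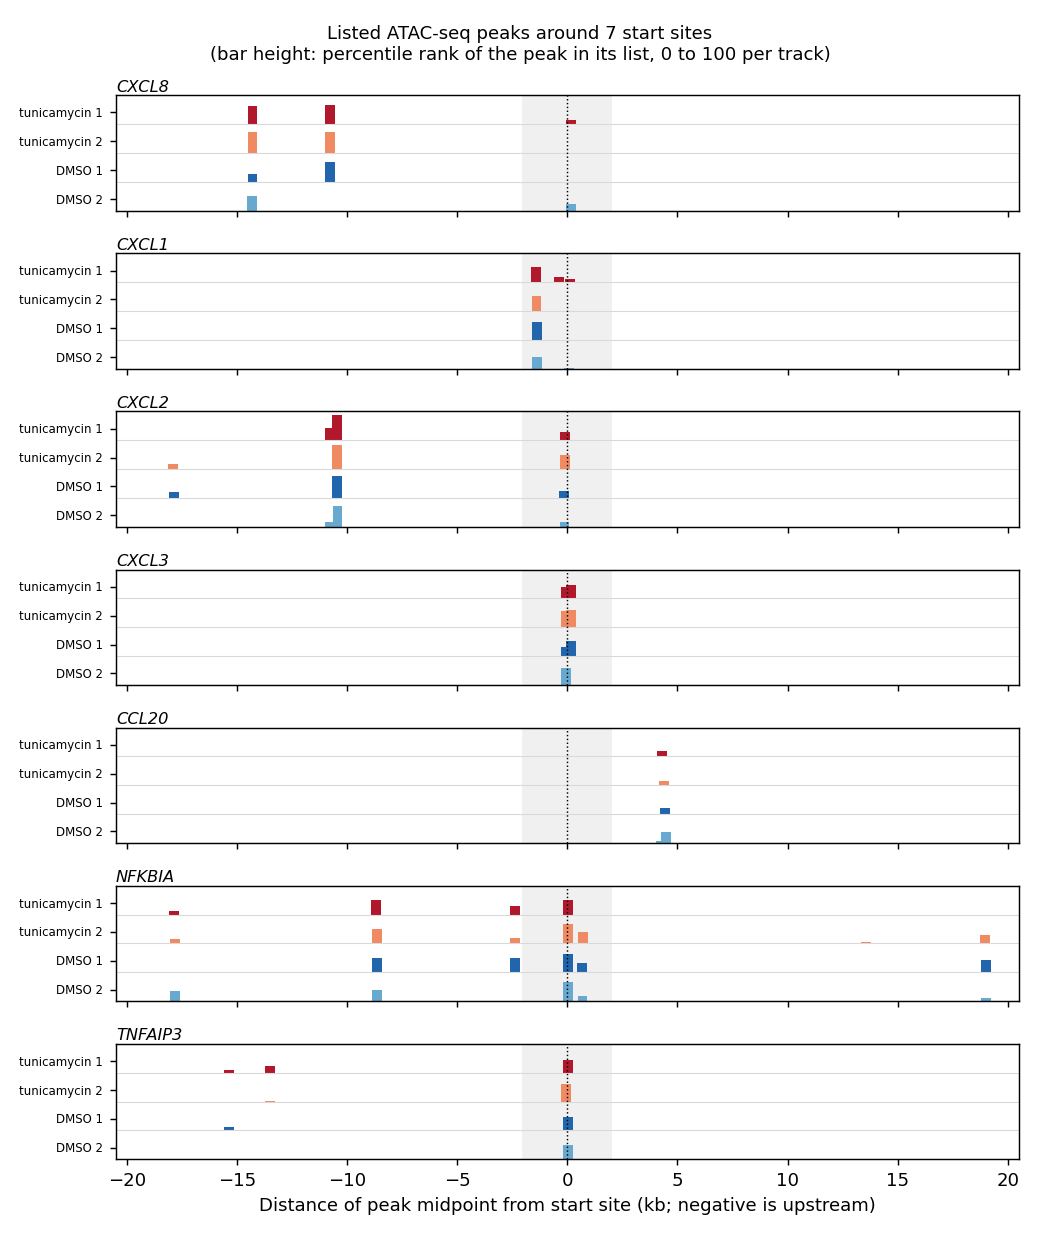
Peaks listed in each library within 20 kb of the 7 start sites, by distance of the midpoint along the gene (kb, negative upstream). Tracks from top to bottom are tunicamycin 1 and 2 and DMSO 1 and 2, bar height is the percentile rank of the peak in its own list from 0 to 100, bar width is fixed and not to scale, and grey shading marks the promoter. CXCL2 and CXCL8 carry their strongest peaks upstream of the promoter, NFKBIA has 7 regions on both sides of its start, and CCL20 has no promoter peak in any library.

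Of the 23 regions, 9 had a peak in all 4 libraries (common regions), which is 39.1% against 51.3% of all regions. A gained region, listed after tunicamycin in both replicates and never after DMSO, was found once, or 4.35% of the 23, where gained regions made up 3.65% of all regions. No region was lost, that is, listed in both DMSO libraries alone, where 1.86% of all regions were. A further 5 regions were listed in 1 library of each group (21.7% against 8.07% of all regions). Tunicamycin had 2 libraries and DMSO 1 in 4 regions (17.4% against 7.74% of all regions). The reverse held in 2 regions (8.70% against 5.08%). A single tunicamycin library listed 2 regions (8.70% against 13.0%), and a single DMSO library listed 0 (0% against 9.28%). The median percentile rank of the 9 common regions, the position of a peak in its own list when sorted by the caller's q-value (0 weakest, 100 strongest), was 54.3 and 64.2 in the tunicamycin libraries and 50.3 and 53.7 in the DMSO libraries. The medians over all common regions were 63.7 and 66.0 after tunicamycin and 62.8 and 62.9 after DMSO.

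None of the 9 common regions passed the test for a change in rank. Ranks over the 40447 common regions were turned into normal scores and compared with limma, with Benjamini-Hochberg adjustment over all of them. Limma called 0 of the 9 in either direction, where 0.0346% of all common regions were called higher and 0.0173% lower after tunicamycin. The adjusted p-values of the 9 began at 0.531. An unadjusted p under 0.05 was reached by 2 of the 9, at CXCL8 and CXCL2, against 7.33% of all common regions. In 3 of the 9 the lower tunicamycin rank exceeded the higher DMSO rank, against 18.0% of all, and in 1 of the 9 the higher tunicamycin rank was under the lower DMSO rank, against 18.3%. The median change of score was 0.12 for the 9 and 0.00 for all common regions. In a bulk library, a change in the share of cells with an open site and a change within each cell cannot be told apart.

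**Figure D2:**
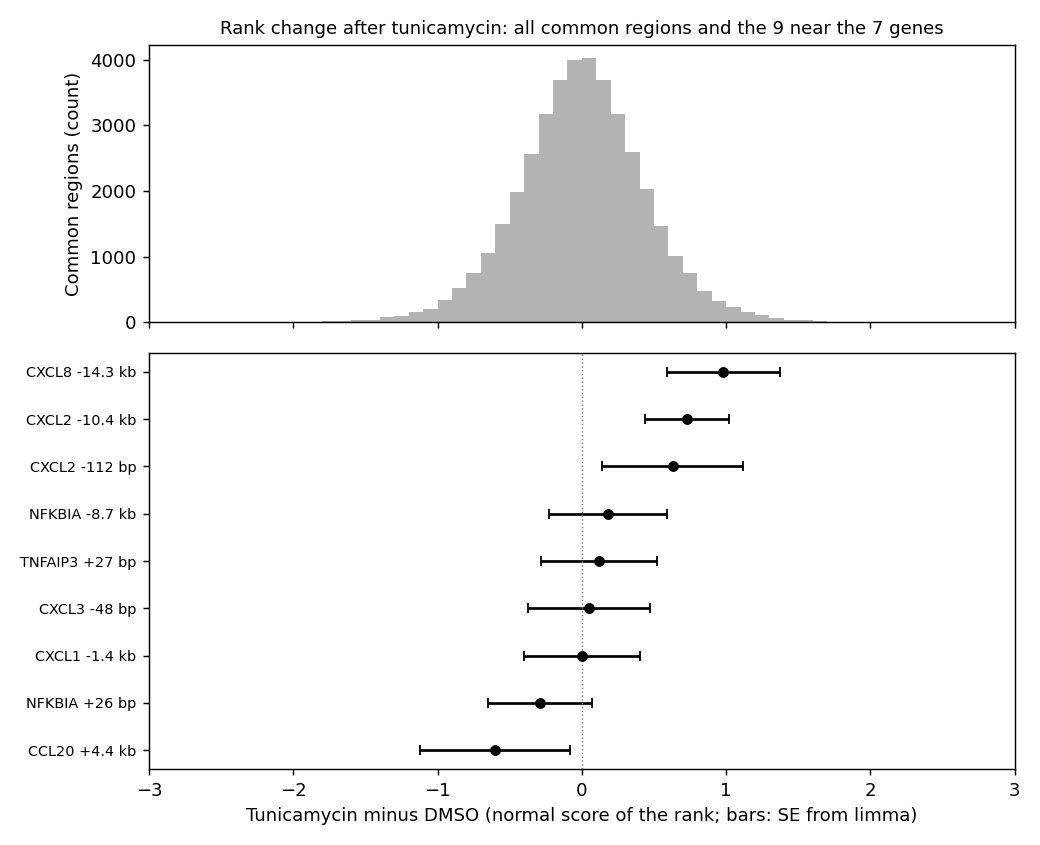
Change of rank after tunicamycin, as the difference of normal scores (tunicamycin minus DMSO, horizontal axis). The upper panel counts all 40447 common regions per bin of 0.1 and the lower panel shows the 9 regions near the 7 genes with bars of ± 1 SE from limma; CXCL8 -14.3 kb (0.98) and CXCL2 -10.4 kb (0.73) lie farthest to the right and CCL20 +4.4 kb (-0.60) farthest to the left, and none passed the adjusted threshold.

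CXCL8 carried its open chromatin mainly upstream of the promoter. Its promoter region, on chromosome 4 at 74606319 to 74606433, was listed in tunicamycin replicate 1 and in DMSO replicate 2 only. Its summits held 6 and 7 reads and lay at percentile ranks 15.8 and 23.5, so 1 weak peak was listed in each group. A region 14.3 kb upstream, at 74591865 to 74591992, was listed in all 4 libraries. There the summit held 19 and 25 reads after tunicamycin, against 10 and 14 after DMSO. The local background was 0.410 and 0.446 reads in tunicamycin replicates 1 and 2, against 0.349 and 0.323 in DMSO replicates 1 and 2. Summit reads were not scaled for this background. Exact Poisson 95% intervals, which cover counting error only, were 11.4 to 29.7 and 16.2 to 36.9 reads after tunicamycin, against 4.80 to 18.4 and 7.65 to 23.5 after DMSO. Its percentile ranks were 68.7 and 79.8 after tunicamycin and 29.9 and 54.2 after DMSO. The groups did not overlap, but the counting intervals did. The score change was 0.98 ± 0.39 (SE) with a limma p of 0.0146 and an adjusted p of 0.540, so it was not called. It was smaller without DMSO replicate 1, at 0.60 (limma adjusted p = 0.816), and larger without DMSO replicate 2, at 1.36 (limma adjusted p = 0.359).

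A second upstream region of CXCL8, 10.8 kb from the start at 74595371 to 74595516, was as strong but was missing from 1 control library. It had 21 and 25 summit reads after tunicamycin and 20 in DMSO replicate 1, and no listed peak in DMSO replicate 2. The percentile ranks were 74.5 and 80.2 in the tunicamycin libraries and 77.2 in DMSO replicate 1, so where it was listed it did not separate the groups. Its peaks were 128 and 102 bp wide after tunicamycin and 146 bp in DMSO replicate 1. The narrowest peak of every list was 100 bp. Whether a narrower peak went unlisted in DMSO replicate 2 was not tested. In the RefSeq annotation of GRCh38, the nearest genes upstream of CXCL8 are the non-coding genes INKILN and UMLILO.

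CXCL2 had the strongest region of the whole set, 10.4 kb upstream of its start on chromosome 4 at 74975337 to 74975531. The summit held 41 and 38 reads in the tunicamycin libraries, against 25 and 24 reads in the DMSO libraries. The exact Poisson 95% intervals were 29.4 to 55.6 and 26.9 to 52.2 reads after tunicamycin, against 16.2 to 36.9 and 15.4 to 35.7 after DMSO. Both tunicamycin values lay above both DMSO values, but the counting intervals overlapped. The local background was 0.693 reads in both tunicamycin libraries, against 0.521 and 0.503 in DMSO replicates 1 and 2. Summit reads were not scaled for it. The authors' −log10 q at the summit was 53.6 and 48.7 after tunicamycin and 30.4 and 29.2 after DMSO. Percentile ranks were 96.1 and 92.4 after tunicamycin and 82.6 and 80.3 after DMSO. The score change was 0.73 ± 0.29 (SE), with a limma p of 0.0137 and an adjusted p of 0.531. The listed peaks were 168 and 171 bp wide after tunicamycin, against 188 and 190 bp after DMSO. This log2 change of -0.16 ± 0.12 (SE, limma adjusted p = 0.902) was not called. The summit stayed in place: it lay 10421 and 10413 bp upstream of the start in the tunicamycin libraries and 10416 bp in both DMSO libraries. The nearest upstream neighbour of CXCL2 in RefSeq is MTHFD2L, an enzyme of mitochondrial folate metabolism.

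The CXCL2 promoter, at 74964969 to 74965248 and thus 112 bp upstream of the start at its centre, was a weaker region open in all 4 libraries. Its summit held 11 and 16 reads after tunicamycin, against 10 and 8 after DMSO. Percentile ranks were 33.0 and 54.1 after tunicamycin and 27.7 and 18.2 after DMSO. The groups again did not overlap, by 1 read, and the score change of 0.63 ± 0.49 (SE) had a limma adjusted p of 0.846. It was 0.34 without tunicamycin replicate 2 and 0.43 without DMSO replicate 2. Its peaks were 259 and 261 bp wide after tunicamycin, against 237 and 229 bp after DMSO (log2 change 0.16 ± 0.10, SE, limma adjusted p = 0.890). The summits lay 79 and 66 bp upstream of the start after tunicamycin and 81 and 156 bp after DMSO. Both further regions of CXCL2, 10.8 kb and 17.9 kb upstream, were listed in 1 library of each group, with 7 to 16 summit reads.

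At the CXCL3 promoter the groups overlapped. A region centred 48 bp upstream of its start, on chromosome 4 at 74904465 to 74904612, was listed in every library. The summits held 13 and 20 reads after tunicamycin and 11 and 18 after DMSO, so replicates differed more than groups. The score change was 0.05 ± 0.42 (SE, limma adjusted p = 0.991). A separate region 162 bp downstream of the start, at 74904263 to 74904392, had 14 and 21 reads after tunicamycin and 15 in DMSO replicate 1, and was not listed in DMSO replicate 2. Its peaks were 105 and 102 bp wide after tunicamycin and 118 bp in DMSO replicate 1, near the narrowest listed width of 100 bp. No other peak lay within 20 kb of CXCL3, so its open chromatin was confined to these promoter regions in the 4 lists.

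CXCL1 had its only common region at the edge of the promoter, 1.4 kb upstream on chromosome 4 at 74733624 to 74733821. Summit reads were 19 and 20 after tunicamycin, against 20 and 14 after DMSO. The groups overlapped, and the score change was 0.00 ± 0.40 (SE, limma adjusted p = 1.00). Closer to the start the signal was weak. A region 82 bp downstream was listed in tunicamycin replicate 1 (10 reads) and in DMSO replicate 2 (6 reads), at percentile ranks 13.9 and 2.47. A region 380 bp upstream was listed in tunicamycin replicate 1 alone, with 11 reads. No peak was listed elsewhere within 20 kb of CXCL1.

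CCL20 had no promoter peak in any of the 4 libraries. An unlisted site may still have had reads, below the caller's threshold or over a stretch narrower than the listed peaks. Its only region lay 4.4 kb downstream of the start, on chromosome 2 at 228682655 to 228683248, and was broad and weak. The summit held 10 and 10 reads after tunicamycin, against 11 and 13 after DMSO, so that the tunicamycin values were the lower ones by 1 read or more. Its −log10 q was 7.97 and 7.99 after tunicamycin and 8.61 and 12.5 after DMSO, and the score change of -0.60 ± 0.52 (SE) had a limma adjusted p of 0.868. It was -0.33 without DMSO replicate 2. It covered 430 and 294 bp after tunicamycin, against 514 and 310 bp after DMSO, the last as 2 separate peaks. Summits moved along this region, from 4197 to 4493 bp downstream of the start over the 4 libraries.

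**Figure D3:**
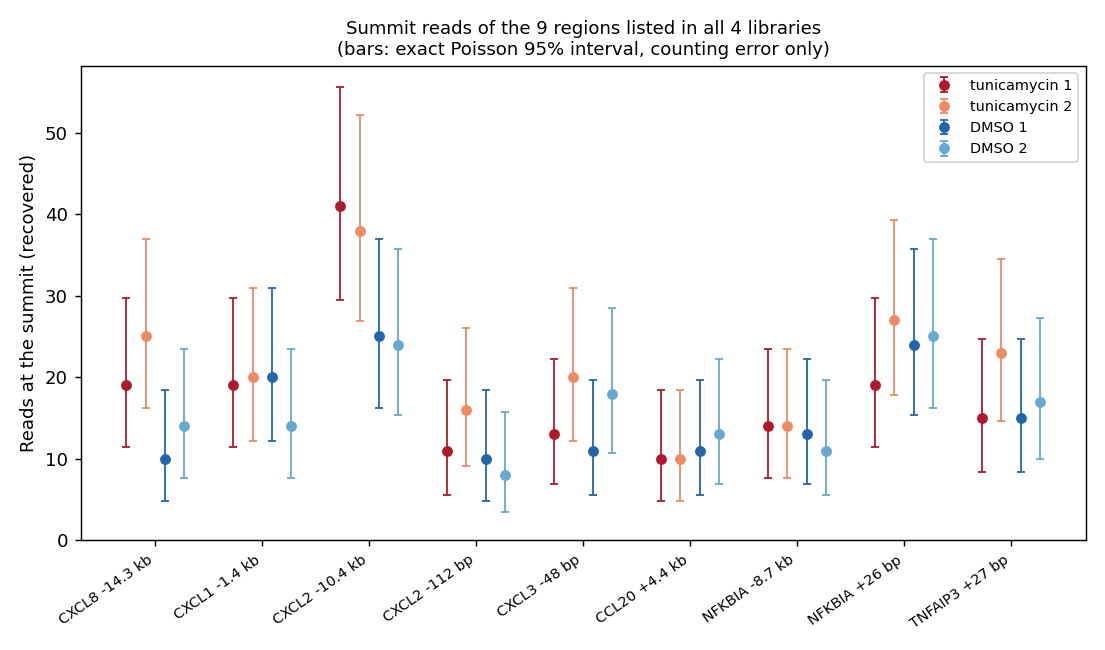
Reads at the summit (vertical axis, recovered from the authors' fold and p-value) of the 9 regions listed in all 4 libraries, with exact Poisson 95% intervals for counting error. Tunicamycin libraries are left of DMSO libraries in each group; at CXCL2 -10.4 kb they hold 41 and 38 reads against 25 and 24, at CXCL8 -14.3 kb 19 and 25 against 10 and 14, and at the NFKBIA start site 19 and 27 against 24 and 25.

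Both feedback genes had an open promoter in every library, and summit reads there overlapped between the groups. At NFKBIA the promoter region lay on chromosome 14 at 35873821 to 35874046, centred 26 bp downstream of the start. Its summit held 19 and 27 reads after tunicamycin, against 24 and 25 after DMSO. In reads the tunicamycin libraries thus lay on either side of the DMSO libraries, and the score change was -0.29 ± 0.36 (SE, limma adjusted p = 0.925). It was -0.01 without tunicamycin replicate 1 and -0.58 without tunicamycin replicate 2. The peaks were 195 and 189 bp wide after tunicamycin, against 202 and 226 bp after DMSO (log2 change -0.15 ± 0.13, SE, limma adjusted p = 0.906). A second promoter region, 667 bp downstream of the start at 35873191 to 35873395, had 17 reads in tunicamycin replicate 2 and 15 and 12 in the DMSO libraries, and was not listed in tunicamycin replicate 1.

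NFKBIA was the most densely covered of the 7 genes, with 7 regions. The tunicamycin libraries listed 4 and 7 peaks there, and the DMSO libraries 5 and 5. The only other common region lay 8.7 kb upstream, at 35882518 to 35882725, with 14 and 14 summit reads after tunicamycin, against 13 and 11 after DMSO. Its score change was 0.18 ± 0.41 (SE, limma adjusted p = 0.972), and percentile ranks were 55.3 and 56.9 after tunicamycin and 54.1 and 41.7 after DMSO. Its peaks covered 198 and 180 bp after tunicamycin, against 167 and 177 bp after DMSO (log2 change 0.13 ± 0.13, SE, limma adjusted p = 0.917). Of the other 4, the region 2.4 kb upstream had 14 and 12 reads after tunicamycin and 19 in DMSO replicate 1, and the region 17.8 kb upstream had 6 and 7 after tunicamycin and 10 in DMSO replicate 2. The region 19.0 kb downstream had 11 reads in tunicamycin replicate 2, against 13 and 7 in the DMSO libraries, and that 13.6 kb downstream was listed in tunicamycin replicate 2 alone, with 5 reads. At NFKBIA no region was gained or lost.

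At TNFAIP3 the promoter region, on chromosome 6 at 138188075 to 138188629, was listed in all 4 libraries. The summit held 15 and 23 reads after tunicamycin, against 15 and 17 after DMSO. The groups overlapped, and the rank score differed by 0.12 ± 0.40 (SE, limma adjusted p = 0.983). Its width varied more between replicates than between groups, at 243 and 378 bp after tunicamycin and 230 and 554 bp after DMSO. The single gained region of the set lay 13.5 kb upstream, at 138174739 to 138174939. It held 8 and 5 summit reads after tunicamycin, at percentile ranks 24.2 and 2.54, and was not listed after DMSO. With −log10 q of at least 5, or with all lists cut to the length of the shortest, it was no longer gained. A nearby region, 15.4 kb upstream, was listed in replicate 1 of each group with 6 reads in both. In RefSeq the non-coding gene WAKMAR2 overlaps the start of TNFAIP3 and extends upstream of it.

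**Figure D4:**
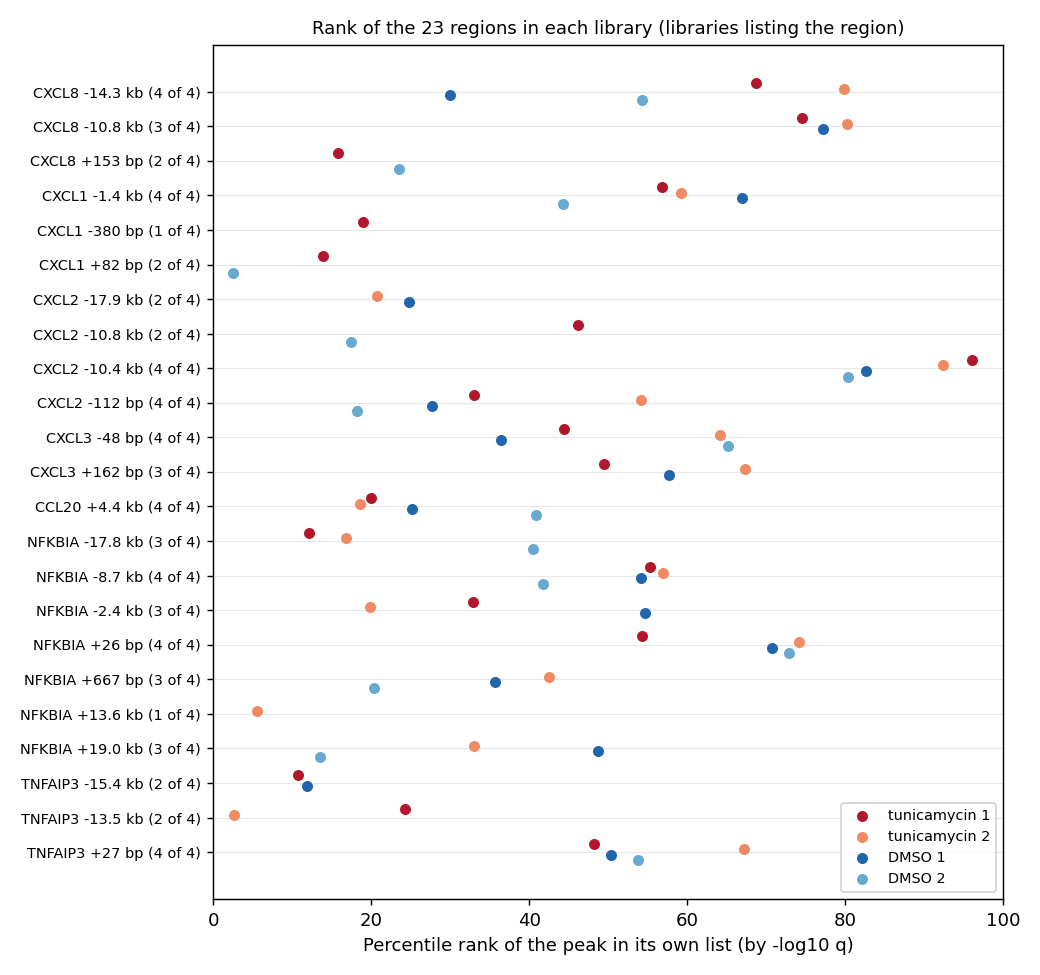
Percentile rank of the peak in its own list (horizontal axis) for each of the 23 regions, by library (tunicamycin in red tones, DMSO in blue tones). Names give the gene and the distance of the region's centre from its start, and the number of libraries that listed it; at CXCL8 -14.3 kb and CXCL2 -10.4 kb the tunicamycin points lie right of the DMSO points, and at the TNFAIP3 -13.5 kb region no DMSO point exists.

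Peak width gave no called difference at any of the 9 common regions. Limma on the log2 of the bases covered by a library's peaks called 0 of the 9 and 0 of the 40447 common regions (0%). No member reached an unadjusted p under 0.05, against 6.21% of all common regions. Both tunicamycin widths lay above both DMSO widths in 2 of the 9 regions and below them in 2. The share of all common regions that separated in width was not computed. The median log2 change was -0.08 for the 9 and 0.02 for all common regions. Over the 5 chemokine genes and the 2 feedback genes, a promoter peak in all 4 libraries was present at 5 of the 7: CXCL1, CXCL2, CXCL3, NFKBIA and TNFAIP3. CXCL1 counted only through its region 1.4 kb upstream. The count was 4 with the promoter set within 1 kb, 6 within 5 kb, and 4 with −log10 q of at least 10.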

How the data were processed

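The authors deposited 1 peak list per library on hg19, called on single libraries as far as the peak names show. Per the submitters' processing notes, the tools were MACS2 2.2.7.1, Bowtie2 2.3.5.1, Picard 2.18.23, Trim Galore, deepTools and SAMtools. The sources used here do not give their order or settings, filters on duplicates or multi-mapping reads, or any transposase shift. Each deposited peak has a whole-number score, a fold ratio over local background, and −log10 p-value and −log10 q-value columns. All are relative to their own library. The narrowest peak of every list was 100 bp, so the lists do not show narrower sites.

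Read totals are unknown. Summit reads are the whole-number pileup that gave the deposited fold and p-value, which existed for 100% of peaks within 0.001 on the −log10 scale. The median summit held 15 or 16 reads.

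Lists were merged where peaks shared at least 1 bp (Python 3.11.15, pandas 2.3.3, numpy 2.4.6). Each library's best −log10 q per common region was ranked, turned into normal scores and fitted with limma 3.58.1 (R 4.3.3, trend). Widths were fitted as log2 bp. Calls had an adjusted p under 0.05. Peak counts were compared with scipy 1.17.1, and promoters aligned with biopython 1.88. Merging and limma steps were tested on simulated data. Libraries were grouped by title. Limma p-values rest on the spread between these libraries, at the region itself and pooled over all common regions.

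All 7 genes are named. Described in full are promoter regions, common regions above the 50th percentile of any list, and gained or lost regions, with other common regions added. The genes, the lists and the rank comparison were chosen with earlier results of these data known. Other NF-kB pathway genes were not used here, as no hg19 annotation was at hand. Alternatives were ranks by fold, log2 summit reads, merging within 250 bp, −log10 q of at least 5 or 10, equal list lengths, other windows, a replicate block and each library left out.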

Additional observations from a re-analysis of the deposited data

How the results depend on the processing

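Limma called 0 of the 9 common regions in rank and in width under every alternative run; the lowest adjusted p for rank lay between 0.344 (log2 summit reads) and 0.792 (without tunicamycin replicate 1). Rank changes at CXCL8 -14.3 kb and CXCL2 -10.4 kb kept their direction in all of them. So did 3 others, but with sizes that 1 library moved: the CXCL2 promoter lay between 0.34 (without tunicamycin replicate 2) and 0.92 (without tunicamycin replicate 1), CCL20 between -0.87 (without DMSO replicate 1) and -0.33 (without DMSO replicate 2), and the NFKBIA promoter between -0.58 (without tunicamycin replicate 2) and -0.01 (without tunicamycin replicate 1), which is near 0. Of the alternatives for single regions, 127 kept the direction and 17 turned it. For rank, CXCL1 -1.4 kb gave 0.11 with log2 summit reads and 0.00 with −log10 q of at least 5, and CXCL3 -48 bp gave -0.15 with peaks up to 250 bp apart merged. With 1 library left out, rank changes ran from -0.35 to 0.35 at CXCL1, from -0.40 to 0.49 at CXCL3, from -0.14 to 0.37 at TNFAIP3 and from -0.01 to 0.37 at NFKBIA -8.7 kb. For log2 width, CXCL3 gave 0.35 with peaks up to 250 bp apart merged and CCL20 gave 0.57 with −log10 q of at least 5. With 1 library left out, widths ran from -0.26 to 0.09 at CXCL3, from -0.53 to 0.20 at CCL20, from -0.87 to 0.40 at TNFAIP3 and from -0.41 to 0.26 at CXCL1.

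The 1 gained region became 0 with −log10 q of at least 5, with lists of equal length or within 10 kb, 2 within 50 kb, and 2 to 4 with 1 library left out, where 1 library then stands for its group. Lost regions numbered 0 to 2 with 1 library left out. The 5 regions listed in 1 library of each group became 2 within 10 kb, and the 9 common regions became 14 within 50 kb. The cause was not tested. The difference of 2.5 peaks was 0.500 within 10 kb, 5.50 within 50 kb, 1.5 with lists of equal length and 2 to 3 with 1 library left out.

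Libraries of equal replicate number showed no shared shift in rank: the deviations of both replicates 1 from their group means had a correlation of 0.0111 over common regions. That does not show whether they were prepared together. With a replicate block, limma called 0 of the 9 regions (lowest adjusted p 0.465 for rank and 0.888 for width), 19 of all common regions higher and 16 lower in rank, against 14 and 7 without it. The difference in peaks stayed 2.50, with an exact sign-flip permutation p of 0.500, the smallest possible. Calls over all common regions also moved with log2 summit reads (39 higher, 21 lower), ranks of the fold (0 and 0) and with 1 library left out (0 to 25 higher, 2 to 12 lower). Summits of 5 to 41 reads limit what single regions can show.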
